A study of Ovis aries with 8 samples.

Results

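The transcripts described here encode the machinery that moves new secretory and membrane proteins into the endoplasmic reticulum (ER) and onward to the Golgi. They were chosen by name as 42 genes in 8 sub-complexes: the signal recognition particle (SRP), the SRP receptor, the SEC61 translocon, the translocon-associated protein (TRAP) complex, oligosaccharyltransferase (OST), the COPII coat, the COPI coat and a set of cargo receptors. A member was the row of the deposited table that carried exactly its symbol, and 38 of the 42 had such a row among 25000 rows. SRP19, COPB2, TMED10 and SEC23B, the last of which occurred only in a row merged with another gene, are not analysed here.

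The RNA came from pancreatic islets, isolated and then picked by hand, of near-term sheep fetuses (Ovis aries), all singletons of Columbia-Rambouillet crossbred ewes. The 4 NE-Infused fetuses received norepinephrine, a catecholamine known to inhibit insulin release, into a vein for 7 days, at 1 µg/min on day 1, 2 µg/min on days 2 to 4 and 4 µg/min on days 5 to 7. They were 137 to 139 days of gestation and weighed 2.8 to 3.7 kg, and 3 were male and 1 female. The 4 Saline-Control fetuses received the diluent, saline with ascorbic acid; they were 139 to 140 days of gestation and weighed 3.6 to 5 kg, again 3 males and 1 female. Hand-picked islets can hold other pancreatic cells, and in bulk RNA a smaller share of cells of a type and less RNA per cell cannot be told apart.

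Proteins destined for secretion carry a signal sequence that SRP recognises as it leaves the ribosome. SRP docks on its receptor in the ER membrane, and the chain passes through the SEC61 channel, helped by TRAP, while OST transfers an N-glycan to it. Folded cargo leaves the ER in COPII-coated vesicles, and COPI-coated vesicles carry escaped ER proteins and receptors back; endocrine cells, which make peptide hormones as larger precursors, depend on this route.

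RNA was measured by sequencing as FPKM (fragments per kilobase of transcript, relative to library size), a level per length, so levels of different genes can be compared. Differences are log2 of FPKM + 1, NE-Infused minus Saline-Control, tested with limma in 13252 rows with a mean of at least 1 FPKM. Summed FPKM ran from 773581 to 1075998 in NE-Infused animals and from 768021 to 1112624 in controls, and the number of fragments behind each value is unknown. Each animal's number begins with 09 or 10, and the labels do not explain it: NE-Infused animals 1, 3 and 4 and control 2 are 09, and NE-Infused animal 2 and controls 1, 3 and 4 are 10. Summed FPKM was 981583 to 1112624 in animals numbered 09 and 768021 to 796149 in those numbered 10. With treatment in the model and FPKM not rescaled, 1384 rows (10.4%) were lower and 803 (6.06%) higher in 10 than in 09 at an adjusted p under 0.05. Since 3 of 4 animals in each group share a prefix, values within each prefix or from a model that holds the prefix are given for the differences described in most detail below.

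Endocrine marker transcripts, led by CHGA, the granule protein chromogranin A, summed to 13153 to 19475 FPKM in NE-Infused islets and 9868 to 16090 in controls. Of 21 endocrine markers 18 had a row, and IAPP, the islet amyloid peptide, was listed at 0 in every animal; INS was not analysed here. Of 29 listed acinar markers 15 were present, with CPA1, a pancreatic carboxypeptidase, the most abundant. They summed to 679, 159, 1203 and 442 FPKM in NE-Infused animals 1 to 4. In controls 1 to 4 the sums were 189, 244, 158 and 187 FPKM. Of these markers, 15 of 15 had the higher mean in NE-Infused islets. The 4 highest sums were those of NE-Infused animals 1, 3 and 4 and control 2, which share a number prefix. NE-Infused animal 2 lay within the range of controls 1, 3 and 4, which share its prefix. Acinar cells carry a very large ER. With the acinar level in the model, the median log2 difference was 0.01 over all members (20 of 38 higher, 13 with a changed sign), 0.0047 over TRAP, 0.07 over OST and 0.15 over the ER chaperones. The same medians without it were 0.06, 0.31, 0.23 and 0.43. The acinar sums thus went with the number prefix, but among animals numbered 09 each NE-Infused sum also lay above that of control 2. With the prefix in the model, log2 differences of tested acinar markers ran from -0.56 for CTRC to 2.00 for CPB1 (limma adjusted p = 0.307). CPA1 stood at 0.54 in that model. How much of the acinar content lay apart from the prefix was not tested.

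No member passed the test. At a limma adjusted p under 0.05, 0 of 38 members were called, as were 0 of 13252 rows (0%), and the lowest adjusted p of a member was 0.587. Unadjusted p-values under 0.05 belonged to 2 members, SEC63 and TMED2, or 5.26%, against 7.36% of all tested rows. SEC63 was also the only member whose groups did not overlap in FPKM, 1 of 38 or 2.63%, where 4.23% of all rows did not overlap and 1.88% did not overlap with the NE-Infused group higher. These shares lie near or below the background, so the counts single out no change of the machinery.

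More member means were higher than lower, none past the threshold. The NE-Infused mean was the higher one in 27 of 38 members (71.1%), against 52.6% of all tested rows, but in 13 of 38 with all libraries scaled to equal FPKM totals. The median log2 difference was 0.063 over members and 0.017 over all tested rows, and with equal totals -0.088 and -0.124. With the number prefix in the model the median over members was 0.013, with 20 of 38 higher, and over all rows -0.018; in that model 0 members and 1 row (0.00755%) passed. Among animals numbered 09 the median over members was -0.047, against -0.036 over all rows, and among those numbered 10 it was 0.051, against 0.0024. Only 13 members had the higher NE-Infused mean within both prefixes, 9 had the lower one in both, and the others differed in sign between prefixes. Control 2, the only control numbered 09, was the highest control in many members. Without it the median over members was 0.19, and 10 of 38 had an unadjusted p under 0.05, with 0 past the adjusted threshold; over all rows the median was then 0.04 and 2185 rows (16.5%) had an unadjusted p under 0.05.

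**Figure D1:**
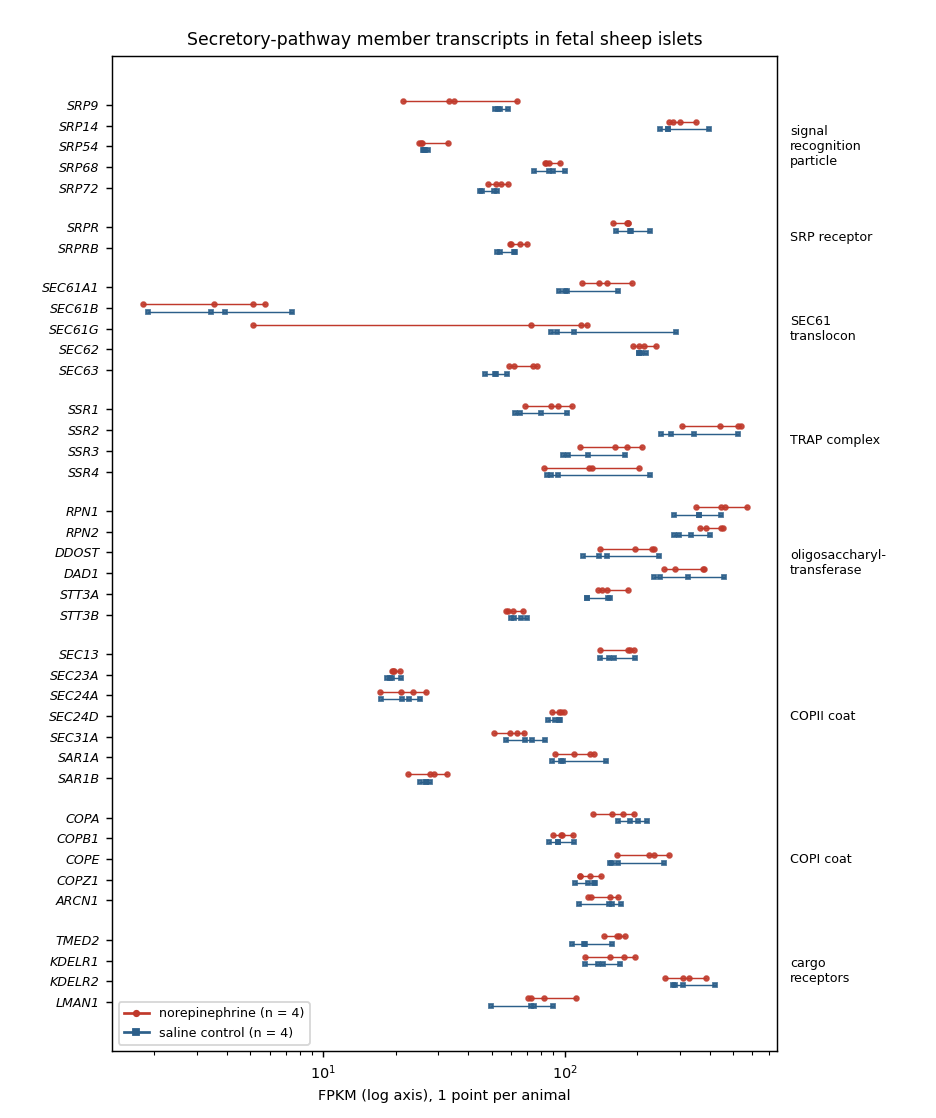
FPKM of the 38 members on a log axis, 1 point per animal (red circles NE-Infused, blue squares Saline-Control, n = 4 each), with a line over each group's range. Levels run from about 4 FPKM for SEC61B to over 400 FPKM for RPN1 and SSR2, and in SEC63 alone do the groups not overlap.

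Levels differed widely among members of the same machine. Averaged over all 8 animals, RPN1 was the most abundant member at 409.8 FPKM, followed by SSR2 at 401, RPN2 at 371, KDELR2 at 323, DAD1 at 321 and SRP14 at 298. SEC23A at 19.6, SEC24A at 21.8, SRP54 at 26.8 and SAR1B at 27.2 were the least abundant apart from the uncertain SEC61B row. The median member had a mean level of 251 FPKM in OST, 149 among the cargo receptors, 147 in the COPI coat and 138 in TRAP, and one of 65.5 FPKM in the COPII coat and 50.9 FPKM in SRP.

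SRP recognises the signal sequence with SRP54, and SRP9 and SRP14 form the end of the particle that pauses the ribosome. SRP9 (chromosome 12, 26964560 to 26973625, build Oar_v3.1) stood at 34.9, 21.5, 33.2 and 63.5 FPKM in NE-Infused animals 1 to 4, against 58.4, 54.2, 52.8 and 51.6 FPKM in controls 1 to 4. In 3 NE-Infused animals it lay below every control and in NE-Infused animal 4 above every control, so the groups overlap. The means were 38.3 ± 17.8 FPKM in NE-Infused islets and 54.2 ± 2.97 FPKM in controls (SD, n = 4 each), a log2 difference of -0.59 (adjusted p = 0.669 by limma, SE 0.27). It was the largest downward difference apart from that of the uncertain SEC61G row, at -0.36 among animals numbered 09 and -1.29 among those numbered 10. With the prefix in the model the SRP9 difference was -0.83 (limma adjusted p = 0.380).

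Its partner SRP14 (chromosome 7, 32613750 to 32718127, a span the file also gives to 2 other rows) had a difference near 0. SRP14 stood at 301, 270.3, 282 and 349 FPKM in NE-Infused animals and at 248, 395, 268 and 268 FPKM in controls, a log2 difference of 0.05 (adjusted p = 0.958 by limma, SE 0.17). SRP14 was therefore 8.61, 12.6, 8.48 and 5.50 times the FPKM of SRP9 in NE-Infused animals 1 to 4, against 4.26, 7.30, 5.07 and 5.19 times in controls. The mean ratio was 8.79 ± 2.90 in NE-Infused islets and 5.46 ± 1.30 in controls (SD, n = 4 each), with NE-Infused animal 4 inside the range of the controls.

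The other SRP members differed by small amounts. SRP54, the GTPase that binds the signal sequence, averaged 27.2 ± 3.70 FPKM in NE-Infused islets and 26.4 ± 0.611 in controls, and SRP68, which with SRP72 forms the other protein pair of the particle, averaged 87.3 ± 5.94 FPKM in NE-Infused islets and 87.9 ± 10.6 in controls. SRP72 averaged 53.4 ± 4.26 FPKM in NE-Infused islets and 48.5 ± 3.97 in controls. The 5 tested SRP proteins had a median log2 difference of 0.04, with 3 higher, or -0.11 with equal totals, and none differed between the prefixes at an adjusted p under 0.05.

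The receptor on the ER membrane is a pair, SRPR, which binds SRP, and SRPRB, which anchors it. SRPRB (chromosome 1, 253591660 to 253626541) stood at 59.5, 65.6, 59.9 and 70.0 FPKM in NE-Infused animals and at 52.5, 61.9, 54.1 and 62.1 FPKM in controls. The groups overlap, since controls 2 and 4 lie above NE-Infused animals 1 and 3, and the log2 difference was 0.14 (adjusted p = 0.777 by limma, SE 0.11). SRPR averaged 177 ± 12.2 FPKM in NE-Infused islets and 191 ± 26.4 in controls, with a log2 difference of -0.11 (SE 0.13).

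SEC63 is the translocon partner that carries a J domain and recruits the chaperone BiP to the channel. SEC63 (chromosome 8, 29249379 to 29314233) stood at 59.1, 61.6, 73.9 and 76.9 FPKM in NE-Infused animals 1 to 4, against 51.3, 58.0, 46.7 and 52.2 FPKM in controls 1 to 4. Every NE-Infused animal lay above every control, but NE-Infused animal 1 cleared control 2 by only about 1 FPKM. The means were 67.9 ± 8.82 FPKM in NE-Infused islets and 52.1 ± 4.64 FPKM in controls (SD, n = 4 each), a log2 difference of 0.37 (adjusted p = 0.587 by limma, SE 0.13). For SEC63 it was 0.26 among animals numbered 09, 0.29 among those numbered 10, 0.28 with the prefix in the model (limma adjusted p = 0.433) and 0.27 with the acinar level in it.

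The channel subunit itself, SEC61A1 (chromosome 19, 59331197 to 59343557), stood at 139, 118, 150.0 and 191 FPKM in NE-Infused animals, against 102, 166, 94.9 and 100.0 FPKM in controls. Control 2 was the highest control by far and exceeded 3 NE-Infused animals. The SEC61A1 log2 difference was 0.39 (adjusted p = 0.704 by limma, SE 0.21) and 0.10 with the prefix in the model. Within animals numbered 09 it was -0.06 and within those numbered 10 it was 0.25. SEC62, which works beside SEC63, averaged 212 ± 20.6 FPKM in NE-Infused islets and 208 ± 7.01 in controls (log2 difference 0.03, SE 0.12).

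Rows named for the small channel subunits SEC61B and SEC61G could not be taken as those genes with confidence. In the file SEC61B is a 288-base span on chromosome 3 and SEC61G a 204-base span on chromosome 14, and 0 of the 10 nearest named rows of each lie near the gene of that symbol in the RefSeq annotation of the sheep assembly ARS-UI_Ramb_v3.0. SEC61B read 5.76, 5.10, 1.79 and 3.51 FPKM in NE-Infused animals and 3.42, 7.46, 1.88 and 3.93 FPKM in controls, far below SEC61A1. SEC61G read 72.9, 5.12, 123 and 118 FPKM in NE-Infused animals and 93.0, 289.8, 87.5 and 109 FPKM in controls, so NE-Infused animal 2 was far below all others and control 2 far above. The translocon's median log2 difference was 0.03 with these rows, 0.37 over the 3 members without them, and 0.26 without control 2.

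TRAP, the SSR1 to SSR4 complex that sits against the channel and aids some chains in entering it, had a median of 0.31, the highest of the 8 sub-complexes while the uncertain translocon rows are kept, with the NE-Infused mean higher in 4 of 4 subunits and 0 called. SSR3 (chromosome 1, 229186339 to 229198466) stood at 161, 115, 182 and 209 FPKM in NE-Infused animals, against 98.7, 179, 103 and 125 FPKM in controls. The 4 highest values of SSR3 are those of NE-Infused animals 3 and 4, control 2 and NE-Infused animal 1, the 4 animals numbered 09. The means were 167 ± 39.6 FPKM in NE-Infused islets and 126 ± 36.7 FPKM in controls, a log2 difference of 0.41 (adjusted p = 0.719 by limma, SE 0.23).

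SSR2 (chromosome 1, 104609520 to 104616269), the most abundant TRAP transcript, showed the same arrangement. It stood at 539, 307, 442 and 522 FPKM in NE-Infused animals and at 252, 522, 276 and 345 FPKM in controls, with a log2 difference of 0.40 (adjusted p = 0.756 by limma, SE 0.26). The groups overlap through control 2, which reaches the level of NE-Infused animal 4, and through NE-Infused animal 2, which lies below control 4. SSR1 ran from 68.3 to 108 FPKM in NE-Infused islets and from 62.6 to 102 FPKM in controls, and SSR4, whose span holds 2 other rows, averaged 135 ± 50.0 FPKM in NE-Infused islets and 123 ± 69.2 in controls.

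With the prefix in the model the TRAP differences were -0.05 for SSR1, 0.01 for SSR2, 0.06 for SSR3 and -0.35 for SSR4. Between prefixes, with treatment in the model, all 4 were lower in animals numbered 10 than in those numbered 09, with log2 differences of -0.52, -0.78, -0.69 and -1.10 for SSR1 to SSR4 (limma adjusted p of 0.0311, 0.0160, 0.0172 and 0.0160). SSR2, for example, averaged 295 FPKM in animals numbered 10 and 506 FPKM in those numbered 09, and SSR4 averaged 87.0 FPKM in animals numbered 10 and 172 FPKM in those numbered 09. With gestational age in the model SSR2 and SSR3 stood at -0.20 and -0.12. TRAP had its lowest values in control 1, control 3 and NE-Infused animal 2 and its highest in NE-Infused animal 4 and control 2.

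OST joins the glycan to asparagine with the catalytic subunits STT3A, which acts as the chain enters, and STT3B, which can act later. RPN1 (chromosome 19, 59075286 to 59087520) and RPN2 (chromosome 13, 65715788 to 65761991, shared with 1 other row), the ribophorins, hold the complex at the ribosome and translocon. RPN2 stood at 454, 386, 364 and 446 FPKM in NE-Infused animals and at 298, 402, 284 and 333 FPKM in controls. In RPN2, 3 controls lay below every NE-Infused animal and control 2 above NE-Infused animals 2 and 3. The RPN2 log2 difference was 0.33 (adjusted p = 0.675 by limma, SE 0.15). It came to 0.06 in the 09 animals and 0.34 in the 10 animals, or 0.20 once the prefix was modelled.

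RPN1 stood at 462, 349.8, 446 and 568 FPKM in NE-Infused animals, against 285, 445, 360.3 and 362 FPKM in controls. NE-Infused animal 2 lay below 3 controls, and the log2 difference was 0.33 (adjusted p = 0.725 by limma, SE 0.19), or 0.10 with the prefix in the model. RPN1 lies 244 kb from SEC61A1 on the same chromosome, and both had their highest value in NE-Infused animal 4 and their highest control value in control 2. Members on other chromosomes, such as SSR1, SSR3 and KDELR1, had the same arrangement.

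Among the other OST subunits DDOST, a structural subunit whose span holds 1 other row, averaged 200.1 ± 44.0 FPKM in NE-Infused islets and 164 ± 56.3 in controls, and was lower in animals numbered 10 (log2 difference -0.75, limma adjusted p = 0.0137). DAD1, a small subunit needed for the stability of the complex, averaged 325 ± 60.6 FPKM in NE-Infused islets and 317 ± 101 in controls. STT3A averaged 153 ± 20.0 FPKM in NE-Infused islets and 139 ± 16.9 in controls, and STT3B averaged 61.0 ± 4.71 FPKM in NE-Infused islets and 64.5 ± 4.68 in controls. STT3A was 2.53 ± 0.453 times the FPKM of STT3B in NE-Infused islets and 2.15 ± 0.263 times in controls, with overlapping groups. The median over the 6 subunits was 0.23, or 0.02 with the prefix in the model.

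**Figure D2:**
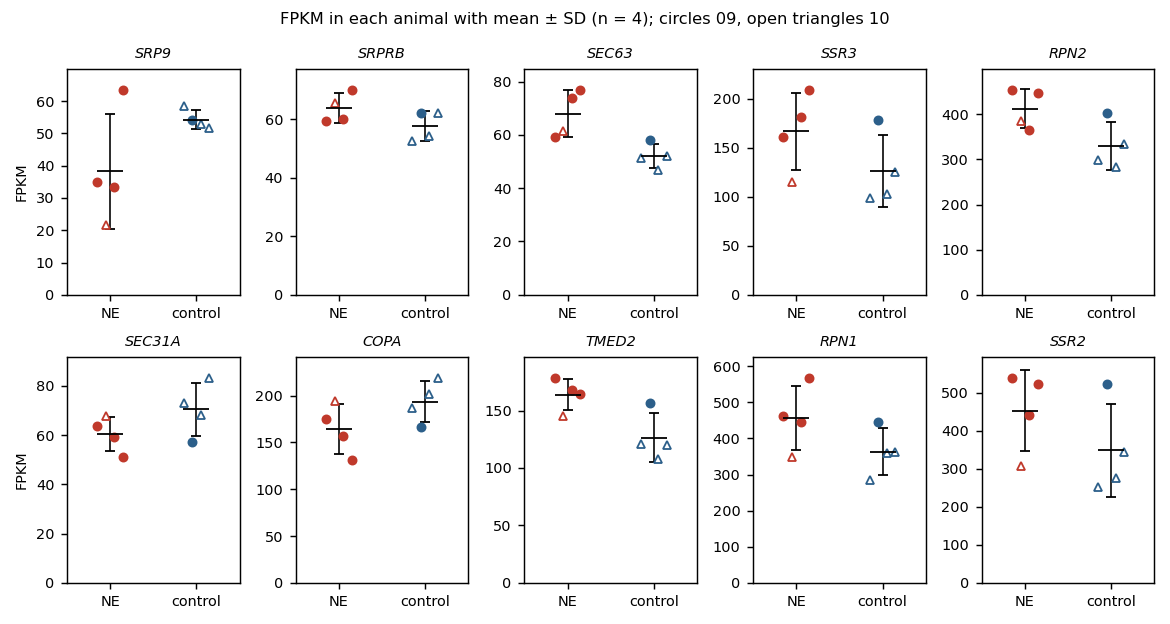
FPKM in each animal for 10 members, NE-Infused (red, left) and Saline-Control (blue, right), with mean ± SD (n = 4 each); filled circles are animals numbered 09 and open triangles those numbered 10. SEC63 is the only panel where the groups do not overlap. In SSR3, SSR2, RPN1 and TMED2 the 4 filled circles of both groups lie above all open triangles, and in COPA and SEC31A below them.

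COPII vesicles bud when SAR1 loads GTP and gathers the inner SEC23 and SEC24 layer and the outer SEC13 and SEC31 cage. SEC31A (chromosome 6, 97265119 to 97315082) stood at 63.6, 67.8, 59.2 and 51.2 FPKM in NE-Infused animals, against 73.2, 57.3, 68.3 and 83.3 FPKM in controls. SEC31A was lowest in NE-Infused animal 4 and control 2 and highest in control 4, and the groups overlap. Its log2 difference was -0.21 (adjusted p = 0.771 by limma, SE 0.15), with 0.01 among animals numbered 09 and -0.14 among those numbered 10.

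Its cage partner SEC13 averaged 176 ± 23.8 FPKM in NE-Infused islets and 163 ± 24.0 in controls, and was lower in animals numbered 10 (log2 difference -0.39, limma adjusted p = 0.0256), while the same difference of SEC31A was 0.30 (limma adjusted p = 0.122). SEC23A averaged 19.9 ± 0.712 FPKM in NE-Infused islets and 19.4 ± 1.14 in controls, and SEC24D, a cargo-selecting subunit, averaged 94.8 ± 4.25 FPKM in NE-Infused islets and 91.9 ± 4.73 in controls. In both genes the groups overlap. SEC24A and SAR1B share 1 locus in the file (chromosome 5, 43492062 to 43600198), so their reads cannot be told apart with certainty. SEC24A averaged 22.1 ± 3.97 FPKM in NE-Infused islets and 21.6 ± 3.28 in controls, and SAR1B averaged 27.9 ± 4.20 FPKM in NE-Infused islets and 26.6 ± 1.04 in controls.

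SAR1A, the more abundant SAR1 GTPase, averaged 115 ± 18.8 FPKM in NE-Infused islets and 108 ± 27.0 in controls, and was lower in animals numbered 10 (log2 difference -0.53, limma adjusted p = 0.0226). SAR1A was 4.22 ± 1.07 times the FPKM of SAR1B in NE-Infused islets and 4.08 ± 1.01 times in controls. The 7 COPII members had a median log2 difference of 0.04, with 6 higher and the highest at 0.11, or a median of -0.11 with equal totals.

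COPI forms from a preassembled coatomer, of which COPA, COPB1, COPE, COPZ1 and ARCN1 were measured. COPA (chromosome 1, 109632313 to 109681985), the alpha subunit that reads the retrieval signal of ER proteins, stood at 175, 195, 157 and 131 FPKM in NE-Infused animals, against 187, 167, 202 and 219 FPKM in controls. It was lowest in NE-Infused animals 3 and 4 and highest in controls 3 and 4, while control 2 lay below NE-Infused animals 1 and 2. The COPA log2 difference was -0.24 (adjusted p = 0.750 by limma, SE 0.15), -0.12 among animals numbered 09 and -0.05 among those numbered 10.

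COPE, the epsilon subunit of the same coat, averaged 224 ± 44.7 FPKM in NE-Infused islets and 184 ± 50.5 in controls, with a log2 difference of 0.30 (adjusted p = 0.774 by limma, SE 0.21). Its difference was -0.02 with the prefix modelled, where COPA stood at -0.09, and -0.09 and 0.05 within the 09 and the 10 animals. COPE was 1.56, 0.843, 1.43 and 1.80 times the FPKM of COPA in NE-Infused animals 1 to 4, and 0.888, 1.56, 0.762 and 0.715 times in controls. The ratio was above 1 in the 4 animals numbered 09 and below 1 in the 4 numbered 10, in both groups. COPE was lower in animals numbered 10 (log2 difference -0.63, limma adjusted p = 0.0127). COPB1, the beta subunit, averaged 98.3 ± 7.77 FPKM in NE-Infused islets and 96.0 ± 9.81 in controls. COPZ1, a zeta subunit whose span holds 1 other row, averaged 125 ± 12.4 FPKM in NE-Infused islets and 126 ± 10.7 in controls. ARCN1, the delta subunit, averaged 144 ± 19.8 FPKM in NE-Infused islets and 149 ± 24.6 in controls. The median over the 5 subunits was -0.0056.

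Cargo receptors connect soluble proteins to these coats. The row named TMED2, a p24 protein of both vesicle types, lies in a 583-base span on chromosome 2 where 0 of 10 neighbouring rows match the place of the gene in RefSeq, so it is reported as uncertain. It stood at 179, 145, 168 and 164 FPKM in NE-Infused animals and at 121, 157, 108 and 119.9 FPKM in controls. Only NE-Infused animal 2 and control 2 break the separation. The TMED2 log2 difference was 0.38 (adjusted p = 0.597 by limma, SE 0.14), or 0.22 with the prefix in the model (limma adjusted p = 0.433).

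KDELR1 and KDELR2 return chaperones that escape the ER, and LMAN1 ferries glycoproteins out of it. KDELR1 averaged 162 ± 31.4 FPKM in NE-Infused islets and 143 ± 19.8 in controls, and KDELR2, whose span holds 7 other rows, averaged 321 ± 50.7 FPKM in NE-Infused islets and 325 ± 64.9 in controls. Both were lower in animals numbered 10, with log2 differences of -0.42 and -0.45 (limma adjusted p of 0.0483 and 0.0323). KDELR2 was 1.99 ± 0.122 times the FPKM of KDELR1 in NE-Infused islets and 2.26 ± 0.179 times in controls, and the groups overlap narrowly. LMAN1 averaged 84.4 ± 19.1 FPKM in NE-Infused islets and 71.6 ± 16.4 in controls, with a log2 difference of 0.24 (SE 0.21), or 0.05 with the prefix modelled.

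**Figure D3:**
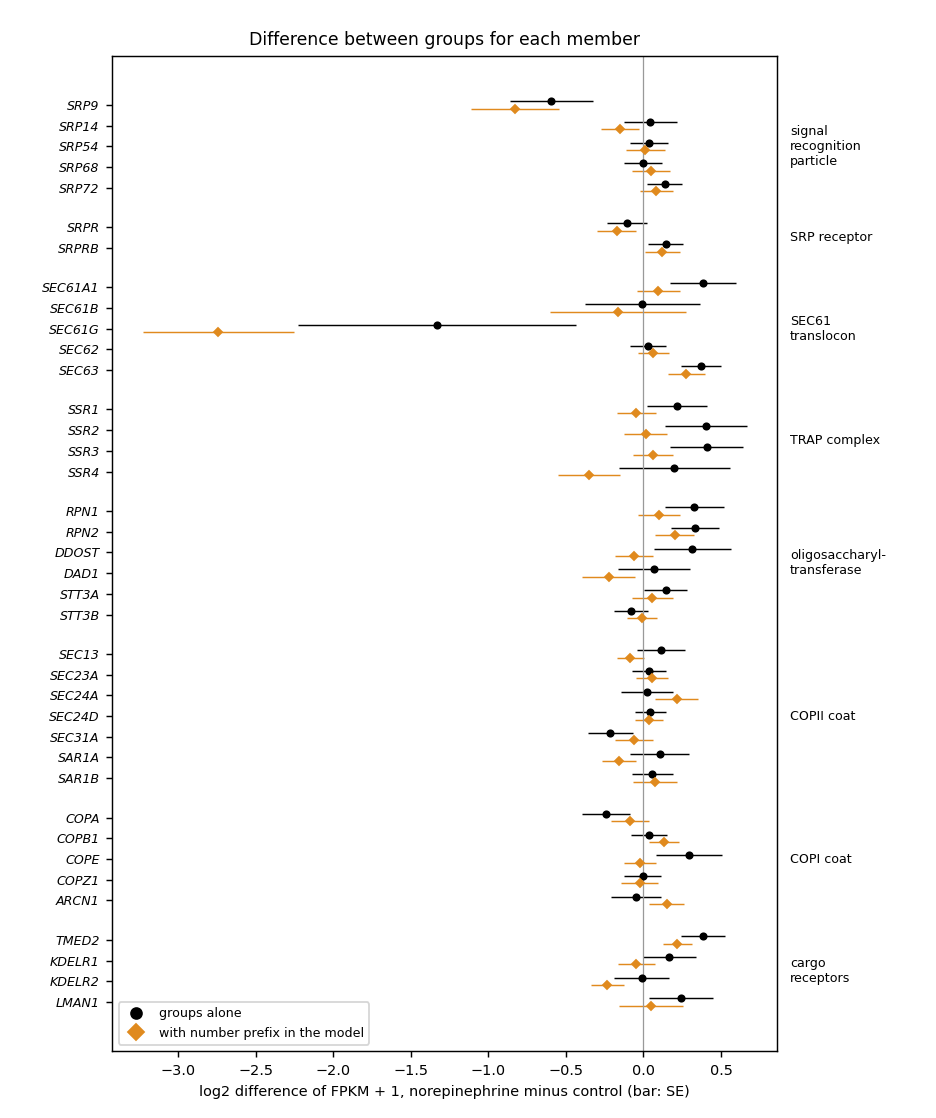
Log2 difference of FPKM + 1 for each of the 38 members, NE-Infused minus Saline-Control (bar: SE), from the groups alone (black) and with the number prefix in the model (orange). The black points of TRAP and OST lie mostly above 0, with medians of 0.31 and 0.23, and the orange ones lie around 0, with medians of -0.02 and 0.02.

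Set side by side, the sub-complexes differed in their medians, with no test, and the groups overlap in each of the 8. The largest medians were of about the size of the spread between animals. TRAP had a median of 0.31 and a pooled SD of 0.37, and OST 0.23 and 0.21. The 17 members in the ER membrane (SRP receptor, translocon, TRAP and OST) had a median log2 difference of 0.20, and the 12 coat members one of 0.04; with equal totals they were 0.05 and -0.12. With the prefix in the model these medians were 0.01 for the ER membrane members and 0.0064 for the coat members. Per animal, the median deviation of the TRAP subunits from their mean over all animals was 0.15, -0.31, 0.20 and 0.50 in NE-Infused animals 1 to 4, against -0.51, 0.39, -0.42 and -0.17 in controls. For COPI the same values were 0.09, 0.14, -0.11 and -0.11 in NE-Infused animals and -0.0018, -0.09, -0.05 and 0.18 in controls. TRAP minus COPI thus averaged 0.14 ± 0.45 in NE-Infused islets and -0.19 ± 0.45 in controls, a difference of 0.32 that came to -0.15 in the 09 animals and -0.03 in the 10 animals.

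**Figure D4:**
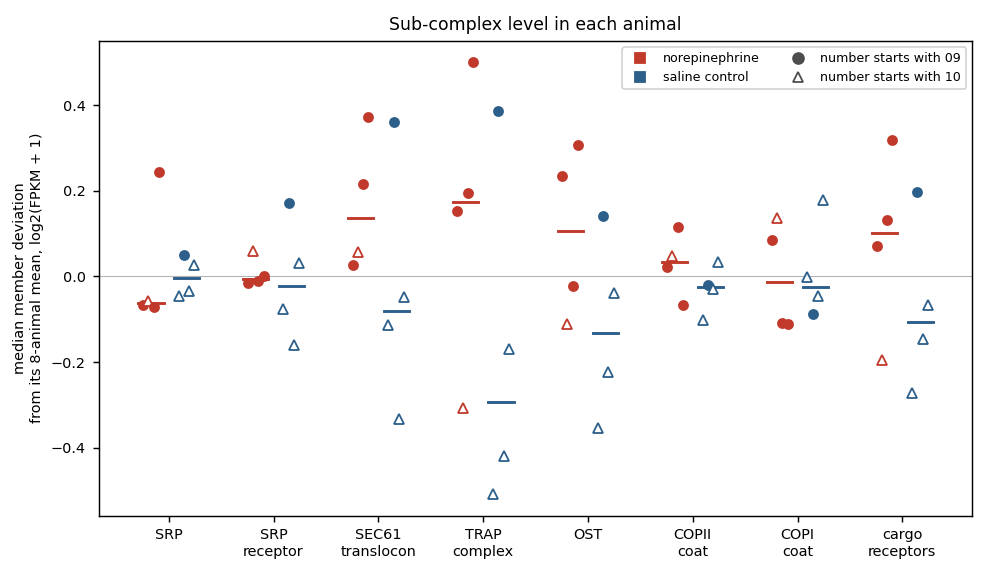
Median deviation of the members of each sub-complex from their mean over all 8 animals, in log2(FPKM + 1), 1 point per animal, NE-Infused (red) left of Saline-Control (blue), with a bar at each group's median; filled circles are numbered 09 and open triangles 10. In TRAP the 4 filled circles lie above all 4 triangles in both groups together, and COPII spreads least.

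More members passed the test between the number prefixes than between the groups. FPKM was not scaled to equal totals in the fit between prefixes. Summed FPKM was lower in every animal numbered 10 than in every animal numbered 09. With treatment in the model, 12 of 38 members (31.6%) were lower in animals numbered 10 at an adjusted p under 0.05, against 10.4% of all rows, and 0 were higher, against 6.06% of all rows. They were SEC61A1, the uncertain SEC61G row, SSR1, SSR2, SSR3, SSR4, DDOST, SEC13, SAR1A, COPE, KDELR1 and KDELR2. The median over members was -0.28 in 10 against 09, and -0.09 over all rows. By sub-complex it was -0.73 in TRAP, -0.40 in the cargo receptors, -0.35 in OST, -0.31 in the translocon, -0.10 in SRP and -0.09 in the SRP receptor, and 0.03 in COPII and 0.19 in COPI. Members of 1 coat went in different directions here, with COPE at -0.63 and ARCN1 at 0.39 (limma adjusted p = 0.0506).

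Genes that work with the members were read from 6 further lists, of which 91 of 113 genes were tested. None was called, 5 (5.49%) had an unadjusted p under 0.05 against 7.36% of all rows, 51 had the higher NE-Infused mean, and their median log2 difference was 0.04. With the prefix modelled 27 of 91 were higher and the median was -0.07, against -0.018 over all rows. With equal totals 28 of 91 were higher and the median was -0.11, against -0.124 over all rows. Translocon partners and accessory OST subunits had a median of 0.17, with 12 of 15 higher, or 0.02 with equal totals and -0.0027 with the prefix modelled (7 of 15 higher). MAGT1, an oxidoreductase subunit of the STT3B form of OST, averaged 46.0 ± 5.33 FPKM in NE-Infused islets and 36.5 ± 4.45 in controls (log2 difference 0.33, SE 0.13, limma adjusted p = 0.655). OST4, a very small OST subunit, was the most abundant at 3373 ± 866 FPKM in NE-Infused islets and 2902 ± 1518 in controls (log2 difference 0.39, or -0.04 with the prefix modelled). Genes of the ER membrane complex and of tail-anchor insertion had a median of 0.14, with 13 of 16 higher. Their median was -0.0092 with equal totals, above that of all rows, and -0.09 with the prefix modelled (2 of 16 higher). At an adjusted p under 0.05, 11 of 16 (68.8%) were lower in animals numbered 10, against 10.4% of all rows. EMC2, which was not among these 11 (log2 difference between prefixes 0.17, limma adjusted p = 0.296), averaged 90.1 ± 9.94 FPKM in NE-Infused islets and 75.7 ± 5.52 in controls. UBL4A, the most abundant of the 16, averaged 184 ± 41.0 FPKM in NE-Infused islets and 153 ± 56.2 in controls.

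The lists for coat assembly, tethers and SNAREs had medians below 0, again with 0 called; with equal totals the medians were -0.22 for COPII assembly, -0.17 for COPI assembly and -0.23 for tethers and SNAREs, against -0.124 over all rows. COPII assembly and exit-site genes had a median of -0.07, with 5 of 12 higher, or 0.02 with the prefix modelled; TRAPPC4, part of the TRAPP tethering complex, averaged 61.2 ± 8.26 FPKM in NE-Infused islets and 77.1 ± 11.9 in controls, and TRAPPC1 averaged 77.7 ± 10.6 FPKM in NE-Infused islets and 82.5 ± 22.0 in controls. COPI assembly genes had a median of -0.01, with 5 of 12 higher, or -0.13 with 1 of 12 higher with the prefix modelled; GBF1, the exchange factor that activates ARF1, averaged 40.3 ± 4.93 FPKM in NE-Infused islets and 45.0 ± 2.23 in controls, and the small GTPase ARF4 averaged 385 ± 31.3 FPKM in NE-Infused islets and 398 ± 92.3 in controls. Tethers and SNAREs had a median of -0.09, with 6 of 21 higher. RAB1A, which directs ER-to-Golgi vesicles, averaged 284 ± 43.5 FPKM in NE-Infused islets and 302 ± 18.3 in controls.

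Of the 91 related genes 4 did not overlap between groups (4.4%), a share near the 4.23% of all rows. One was SCFD2, a Sec1-family protein of that last list. It stood at 9.12, 10.5, 9.69 and 8.20 FPKM in NE-Infused animals and at 13.9, 13.4, 12.7 and 12.1 FPKM in controls, a log2 difference of -0.44 (adjusted p = 0.523 by limma, SE 0.13). With the prefix modelled the SCFD2 difference was -0.40. All 4 NE-Infused animals lay below all 4 controls, whatever their prefix.

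Other cargo receptors had a median of 0.11, with 10 of 15 higher. Their median was -0.04 with equal totals, against -0.124 over all rows. With the prefix modelled it was -0.07 (4 of 15 higher), against -0.018 over all rows. KDELR3, the third KDEL receptor, stood at 178, 163, 171 and 198 FPKM in NE-Infused animals, against 131, 152, 114 and 128 FPKM in controls, with a log2 difference of 0.43 (adjusted p = 0.523 by limma, SE 0.13). Every NE-Infused animal lay above every control, while KDELR1 and KDELR2 overlapped. With the prefix in the model the KDELR3 difference was 0.32. ERGIC1, a protein cycling between the ER and the Golgi, also did not overlap, at 113 ± 8.39 FPKM in NE-Infused islets and 86.5 ± 10.4 in controls (log2 difference 0.39, SE 0.12, limma adjusted p = 0.554). TMED5, a p24 protein, did not overlap in the lower direction, at 55.7 ± 8.16 FPKM in NE-Infused islets and 73.7 ± 6.32 in controls (log2 difference -0.41, SE 0.14, limma adjusted p = 0.576). BCAP31, the most abundant of the list, averaged 340.2 ± 71.0 FPKM in NE-Infused islets and 310.0 ± 89.8 in controls. ERGIC1 and TMED5 were picked out after their values were seen.

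Regulators known to act on secretory-pathway genes, mostly transcription factors, gave 0 calls among 10 tested, with 3 higher and a median of -0.09; XBP1 and BHLHA15 are not analysed here. CREB3, an ER-anchored factor released on transport to the Golgi, stood at 38.0, 36.0, 40.1 and 37.9 FPKM in NE-Infused animals, against 51.0, 78.2, 41.0 and 51.9 FPKM in controls. The groups did not overlap, though control 3 lay within 1 FPKM of NE-Infused animal 3, and the log2 difference was -0.50 (adjusted p = 0.597 by limma, SE 0.18), or -0.70 with the prefix modelled. CREB3L2, which is known to drive COPII genes in mouse cartilage, averaged 19.4 ± 7.92 FPKM in NE-Infused islets and 28.9 ± 8.18 in controls (log2 difference -0.59, SE 0.33), or -0.16 with the prefix modelled. ATF4, the effector of the integrated stress response, averaged 1148 ± 282 FPKM in NE-Infused islets and 809.8 ± 326 in controls (log2 difference 0.54, SE 0.28), or 0.16 once the prefix was modelled.

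The remaining regulators overlapped between groups. ATF6, the ER-stress sensor, had a log2 difference of -0.41, or -0.09 with the prefix modelled, and its relative ATF6B had -0.10, or -0.23. ERN1, the kinase and nuclease IRE1, stood at 0.06, or 0.37 with the prefix modelled. CREB3L1 had a log2 difference of 0.10, or -0.13 with the prefix modelled, and CREB3L4 one of -0.03, or -0.17. The proteases that release these factors in the Golgi, MBTPS1 and MBTPS2, stood at -0.08 and -0.27, or at -0.24 and -0.14 with the prefix modelled.

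ER chaperones and folding enzymes, which act on the chains that the members deliver, had a larger median of 0.43, with 13 of 16 higher and 0 called. At an unadjusted p under 0.05 there were 7 of 16 (43.8%), against 7.36% of all rows and 2 of 38 members. Once the prefix was modelled their median was 0.09, with 11 of 16 higher. With equal totals it was 0.28, with 13 of 16 higher, against -0.124 over all rows. In 2 of 16 (12.5%), CANX and PDIA3, the groups did not overlap, against 4.23% of all rows. Their log2 differences were 0.47 and 0.50, or 0.33 and 0.37 with the prefix modelled. CANX and PDIA3 were picked out after their values were seen. PDIA4, a disulfide isomerase, averaged 241 ± 39.6 FPKM in NE-Infused islets and 167 ± 28.0 in controls (log2 difference 0.53, SE 0.17, limma adjusted p = 0.550), or 0.35 with the prefix in the model. P4HB, another disulfide isomerase and the most abundant of the list, averaged 1445 ± 312 FPKM in NE-Infused islets and 1112 ± 363 in controls (log2 difference 0.40, SE 0.26), or 0.02 with the prefix modelled.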

How the data were processed

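Islet RNA of 8 fetuses was sequenced from mRNA libraries made with a TruSeq kit as paired reads, per the labels' protocols. The submitters' processing notes list TopHat2 2.0.1, Cufflinks 2.1.1, Cuffdiff and the build Oar_v3.1. No strand setting, filter or annotation is given in the sources used here, and reads of antisense or overlapping genes may be mixed. The deposited table gives 1 FPKM value per gene and animal, per the file headers, and 0 columns were left out. It holds no counts, so depth is unknown and no counting interval was computed.

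From it log2(FPKM + 1) was computed, which understates changes of low genes. Of the rows, those averaging at least 1 FPKM (13252) entered a two-sided comparison in limma 3.58.1 under R 4.3.3 (lmFit, eBayes with trend). P-values were adjusted by Benjamini-Hochberg over these rows, with a threshold of 0.05. The procedure was also tested on simulated data. Sub-complex medians are descriptions with no test. Alternatives changed the pseudocount, filter, scaling and covariates (number prefix, gestational age, acinar level), or left out animals. Coordinates are the file's, counted from 1. Loci were compared with RefSeq by neighbouring gene names only. For SRP54 and SRPRB 0 neighbours were compared, so their loci were not checked. The members and all lists were chosen with earlier results of these data known. Values in every animal are given for the member of each sub-complex with the lowest p, members without overlap and the 2 most abundant, and of each related list the lowest-p and most abundant genes are named; other members were added for comparison.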

Additional observations from a re-analysis of the deposited data

Results flagged for a closer look

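In 6 of 76 sets of 4 animals (38 members in 2 groups), 1 animal stood far from the other 3 on the log2 scale, by a gap above the 95% critical value of Dixon's test for 4 values. Chance flags about 1 in 20 such sets. Control 2, the only control numbered 09, was the high animal in 4 of them, at 395.4 FPKM for SRP14, 165.8 for SEC61A1, 226.8 for SSR4 and 259.3 for COPE. NE-Infused animal 4 was the high animal for SRP54, at 32.79 FPKM, and the low one for SRPR, at 158.5 FPKM. The other animals were flagged in 0 sets. Without control 2, the median log2 difference over members was 0.19 and 10 of 38 members had an unadjusted p under 0.05 (16.5% of all rows did), against 2 with it (7.36% of all rows), with 0 past the adjusted threshold by limma in both. TRAP had a median of 0.56 without control 2. The part of the number prefix in the values of control 2 was not tested.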

How the results depend on the processing

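Members past the threshold numbered 0 under all 21 other settings, with the lowest adjusted p between 0.196 (without control 2) and 0.999 (without control 3). Over all rows, 1 gene passed under equal FPKM totals, with the number prefix as a covariate, with both together and among males only, against 0 by the groups alone; leaving out 1 animal at a time gave 0 to 2, with 588 to 2185 at an unadjusted p under 0.05. Equal totals moved the median of all rows from 0.017 to -0.124, and with it the medians of all members (-0.088), SRP (-0.11), the SRP receptor (-0.13), COPII (-0.11) and COPI (-0.16), and turned SRPRB to -0.0087. Gestational age as a covariate gave medians of -0.12 for all members, -0.15 for SRP, -0.20 for TRAP, -0.12 for OST and -0.22 for the cargo receptors, and turned COPA to 0.070, SEC31A to 0.068, RPN1 to -0.11, SSR2 to -0.20 and SSR3 to -0.12. SEC31A was 0.0076 with prefix and equal totals. The translocon median was 0.37 without the rows of uncertain locus, 0.38 among males, and -0.03 to 0.26 leaving out 1 animal (0.26 without control 2). The causes were not tested. SEC63 and SRP9 kept their sign under every setting run, at 0.22 to 0.43 and -1.29 to -0.36. The replicate block, for numbers shared by different animals, left 0 genes past the threshold (646 unadjusted) and 0 members (lowest adjusted p 0.970). Deviations of same-numbered animals from their group means had correlations of -0.156, -0.381, -0.034 and 0.093 for numbers 1 to 4. Each of the replicates 1 to 4 differs in prefix between the groups, so these correlations cannot show whether the animals were paired.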

Other observations

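Across members, the difference between animals numbered 10 and 09 went with the length of the locus in the file. Spearman's rho was taken between the log of the locus length and the log2 difference, 10 minus 09 with treatment in the model. It was 0.73 over the 27 members with a locus of their own. Short loci such as SSR2 and KDELR1 were lower in 10 and a long one such as COPA was not. SRPR, with the shortest locus of the 27, differed by only -0.13 (limma adjusted p = 0.494). Over 12089 tested rows with a locus of their own rho was 0.38. For the difference of NE-Infused minus Saline-Control the same rho was -0.30 over the members and -0.14 over all rows. These are descriptions across genes measured in the same 8 libraries, with no test, and genes are not independent replicates. What ties locus length to the number prefix was not tested.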
